A study of Mus musculus with 5 samples.

Results

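This account describes 10 genes of smooth muscle and of the mural cells that wrap small blood vessels, in embryonic mouse forebrain. They are the contractile genes Tagln, Acta2, Cnn1, Myl9, Tpm1 and Tpm2, the transcriptional cofactor Vgll3, and the mural genes Abcc9, Pdgfrb and Rgs5. Every probe set whose single gene symbol was one of these names was taken, which gave 26 probe sets for 10 of the 18193 genes with a named probe set. The genes were chosen by their measured values: contractile genes much brighter in cell culture than in tissue were set against markers of pericytes. The difference between culture and tissue is therefore given for them as a description without a test. The differences between genotypes were not used in the choice and were tested. The tests within tissue, and of whether the genotype difference changed between culture and tissue, share the wild-type tissue array with that choice. They are therefore not independent of it.

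RNA was measured on 5 Affymetrix mouse arrays, all of it from the germinal zones of the rostral medial ganglionic eminence (MGE), a ventral forebrain structure that produces many cortical interneurons, at E15.5 (embryonic day). There were 4 groups: wild-type (WT) tissue on 1 array, tissue of mutants lacking the homeodomain factors Dlx1 and Dlx2 on 2 arrays, and primary neuronal cultures of WT and of mutant cells on 1 array each. One label of the WT tissue array gives its genotype as WT, while its title leaves an allele blank. The labels do not give the strain, the alleles, the culture medium, the time in culture or the number of embryos behind an array. Nor do they tell whether separate embryos lay behind each of the mutant tissue arrays, so the p-values measure a spread between arrays that may be only technical.

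As background, the contractile apparatus of smooth muscle consists of actin and myosin filaments with proteins that stabilise or regulate them. Many of its genes are known targets of serum response factor (SRF) and its myocardin-family cofactors, which respond to the state of the actin cytoskeleton. Fibroblasts, myofibroblasts and other adherent cells can express several of these genes too, so they do not by themselves name smooth muscle. Pericytes surround brain capillaries and are commonly recognised by Pdgfrb, Rgs5 and Abcc9, and brain capillary pericytes are known for little contractile actin.

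The targeted genes followed the labels. The signal of Dlx1 was 3278 in tissue and 603 in culture of WT against 0.921 to 2.80 in the 3 mutant arrays, and Dlx2 read 1069 and 331 against 11.7 to 21.7. Array medians lay between 26.2 and 29.8 in signal before normalization. Signals below 5.15, the pooled 20th percentile, were set to that floor, and a fold against a group wholly at the floor is given as "at least". Signals of different probe sets cannot be compared with each other, so each gene is set only against itself across arrays. In RNA from mixed cells, fewer cells of a type and less RNA per cell cannot be told apart.

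The contractile genes were far brighter in both cultures than in any tissue array, and this held in WT and in mutants. Tagln encodes transgelin, an actin-binding protein of smooth muscle. Its only probe set (1423505_at) gave a signal, as deposited, of 4.08 in WT tissue, 29.5 and 31.6 in the 2 mutant tissue arrays, 7109.5 in cultured WT cells and 6487 in cultured mutant cells. The WT tissue value lay at the floor, so normalized signal was at least 1366-fold higher in WT culture than in WT tissue, and it was 209-fold higher in mutant culture than in mutant tissue. Acta2 encodes the smooth muscle isoform of actin. Its brightest probe set (1416454_s_at) read 72.3 in WT tissue, 86.4 and 94.9 in the 2 mutant tissue arrays, 13627 in cultured WT cells and 14086 in cultured mutant cells. Acta2 thus stood apart by 194-fold in WT and 158-fold in mutants, with no overlap between preparations.

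Cnn1 encodes calponin, an actin-associated protein regarded as a marker of more differentiated smooth muscle. Its probe set (1417917_at) read 1.68 in WT tissue, 1.96 and 3.78 in the 2 mutant tissue arrays, 119.5 in cultured WT cells and 72.7 in cultured mutant cells. All 3 tissue arrays lay at the floor, which gave at least 24.3-fold in WT and at least 14.4-fold in mutants. Cnn1 was the only one of the 10 genes too dim on average to enter the tests. Myl9 encodes the regulatory light chain of smooth muscle and non-muscle myosin. It was well measured on every array, at 117.1 in WT tissue, 158.4 and 155.7 in the 2 mutant tissue arrays, 3167 in cultured WT cells and 3193 in cultured mutant cells. The culture signal of Myl9 was 26.2-fold higher in WT and 20.5-fold higher in mutants.

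Tropomyosins are coiled-coil proteins that lie along actin filaments, and each tropomyosin gene yields several isoforms in muscle and non-muscle cells. The brightest Tpm1 probe set (1423721_at) read 130.6 in WT tissue, 95.4 and 116.6 in the 2 mutant tissue arrays, 2118 in cultured WT cells and 1997 in cultured mutant cells. On the log2 scale that was higher in culture by 3.96 in WT and by 4.26 in mutants. The other 3 Tpm1 probe sets were higher in culture as well, by 1.38 to 5.05 on the log2 scale in WT and by 2.36 to 5.51 in mutants. The brightest Tpm2 probe set (1419738_a_at) read 28.4 in WT tissue, 59.5 and 49.1 in the 2 mutant tissue arrays, 639 in cultured WT cells and 400.1 in cultured mutant cells. Its culture signal was 24.0-fold higher in WT and 7.68-fold higher in mutants. The other 3 Tpm2 probe sets were higher by 1.03 to 3.31 in WT and by 0.58 to 3.56 in mutants, so the probe sets of both tropomyosin genes shared a direction but not a size.

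Vgll3 encodes a cofactor of the TEAD transcription factors and carries no contractile function itself. Its brightest probe set (1453593_at) read 12.4 in WT tissue, 30.1 and 15.1 in the 2 mutant tissue arrays, 1231 in cultured WT cells and 1246 in cultured mutant cells. All 3 of its probe sets were higher in culture, by 4.57 to 6.69 on the log2 scale in WT and by 3.81 to 5.82 in mutants. The brightest one corresponds to 103-fold in WT and 56.5-fold in mutants.

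**Figure D1:**
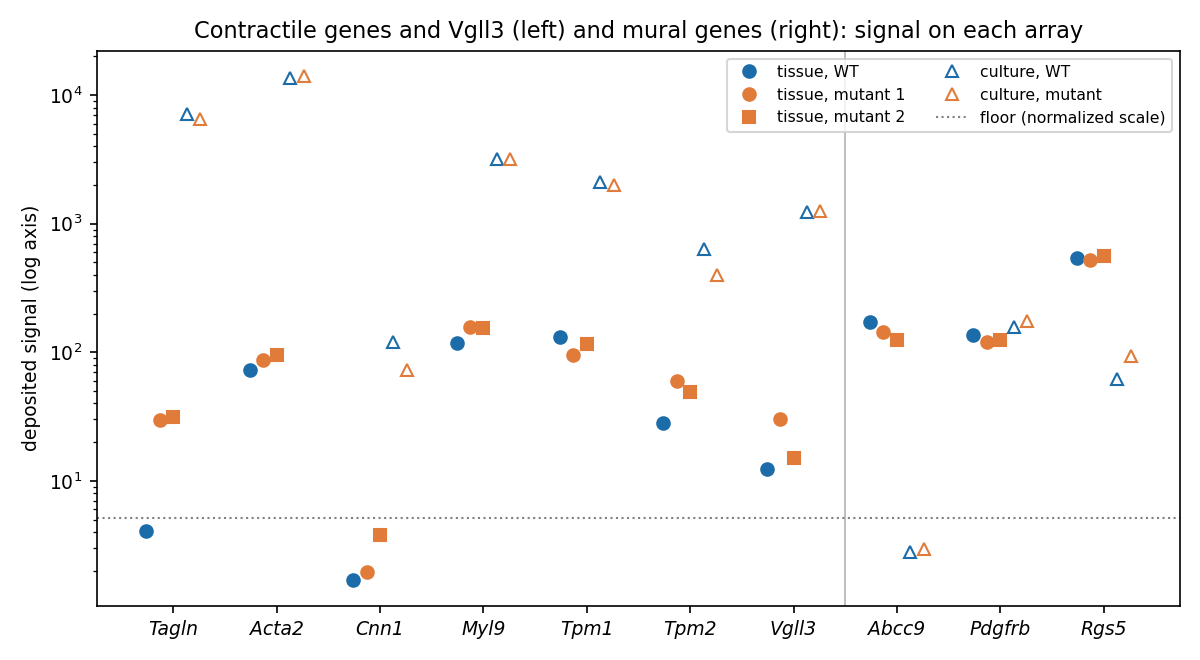
Deposited signal (log axis) of the brightest probe set of each of the 10 genes, with 1 point for each of the 5 arrays; filled symbols are tissue, open triangles culture, and the dotted line is the floor of 5.15 on the normalized scale. The 6 contractile genes and Vgll3 lie higher on both culture arrays than on all 3 tissue arrays, Abcc9 and Rgs5 lie lower, and Pdgfrb lies close together on all 5.

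The mural genes did not follow them. Rgs5 encodes a regulator of G-protein signalling that is abundant in brain pericytes. Its brightest probe set (1417466_at) read 544.9 in WT tissue, 522.4 and 563.0 in the 2 mutant tissue arrays, 61.5 in cultured WT cells and 93.3 in cultured mutant cells. Culture was 8.50-fold lower in WT and 5.60-fold lower in mutants. The other 3 Rgs5 probe sets were lower in culture too, with log2 differences of −3.10 to −2.43 in WT and −2.48 to −2.09 in mutants.

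Abcc9 encodes a regulatory subunit of ATP-sensitive potassium channels. Its brightest probe set (1435752_s_at) read 171.3 in WT tissue, 143.3 and 124.7 in the 2 mutant tissue arrays, 2.78 in cultured WT cells and 2.93 in cultured mutant cells. Both cultures lay at the floor, so the signal was at least 33.5-fold lower in WT culture and at least 25.1-fold lower in mutant culture. The other 2 Abcc9 probe sets were lower in both cultures as well. Pdgfrb encodes the receptor for platelet-derived growth factor B on mural cells and fibroblasts. Its brightest probe set (1436970_a_at) read 136.3 in WT tissue, 120.8 and 123.5 in the 2 mutant tissue arrays, 157.1 in cultured WT cells and 173.8 in cultured mutant cells. Those values were 1.18-fold higher in WT culture and 1.51-fold higher in mutant culture. Its dimmer probe set read 9.99 in WT tissue, 6.92 and 12.7 in the 2 mutant tissue arrays, 29.1 in cultured WT cells and 18.5 in cultured mutant cells. Pdgfrb thus did not share the low culture signal of Rgs5 and Abcc9.

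By the brightest probe set, 7 of 7 contractile genes and Vgll3 were at least 2-fold higher in culture in both genotypes, against 5.93% of all 11063 genes tested. Of the 3 mural genes, 2 were at least 2-fold lower in both genotypes, against 3.25% of all genes. These shares restate the choice of genes and nothing is read from them. Of the 17 probe sets of the contractile genes and Vgll3, 16 were higher in both genotypes and 15 by 2-fold or more. The exception was another Acta2 probe set (1456658_at), which read 19.99 in WT tissue, 1.77 and 2.79 in the 2 mutant tissue arrays, 12.3 in cultured WT cells and 9.24 in cultured mutant cells. Among all genes tested, ordered from most higher in culture, Tagln ranked 1 in WT and 1 in mutants, Acta2 ranked 2 and 3, and Vgll3 ranked 5 and 8. Ordered from most lower, Abcc9 ranked 10 and 11 and Rgs5 ranked 40 and 56. There was no threshold in the choice of genes, so no values lie just inside or outside one.

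**Figure D2:**
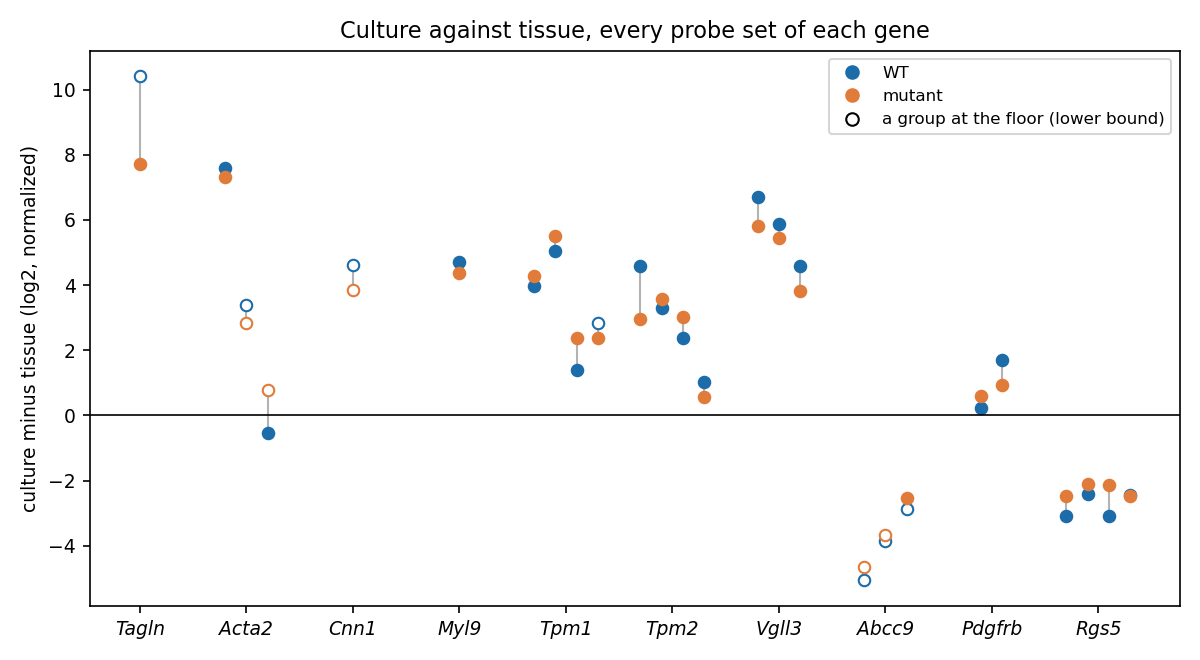
Culture minus tissue (log2, normalized signal) for each of the 26 probe sets, in WT (blue) and in mutants (orange), with the brightest probe set of each gene at its left. Open symbols are bounds where a group lay at the floor. Probe sets of 1 gene differ in size, and 1 Acta2 probe set lies below 0 in WT.

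Stretches of the promoters show the letters known to bind SRF and TEAD factors where these members have them. RefSeq promoters (GRCm38.p6, from 250 bases before to 50 bases after each start) were matched by symbol for 8 of the 10 genes; Tagln and Pdgfrb were not matched. The CArG box, the element bound by SRF, was searched by its consensus on both strands. The TEAD motif was searched as GGAATG or, for the other strand, CATTCC. The motif is in capitals in each stretch of 30 bases, written 5′ to 3′ on the gene's strand.
Myl9, CArG box: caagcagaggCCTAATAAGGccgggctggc
Acta2, TEAD motif: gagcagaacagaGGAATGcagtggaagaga
Tpm1, TEAD motif: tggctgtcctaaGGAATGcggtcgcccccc
Vgll3, TEAD motif: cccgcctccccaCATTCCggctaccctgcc
Abcc9, TEAD motif: tggtcctgaatgGGAATGgccggagtgatg
The Myl9 stretch is chr2:156775293-156775322 (plus strand), with the motif starting 161 bases before the gene's start. The Acta2 stretch is chr19:34255502-34255531 (minus strand, 146 bases before the start), that of Tpm1 is chr9:67049252-67049281 (minus strand, 56 bases before), that of Vgll3 is chr16:65815114-65815143 (plus strand, 63 bases before), and that of Abcc9 is chr6:142702476-142702505 (minus strand, 219 bases before). The CArG box was found in 1 of 8 member promoters against 1.63% of all 32851 promoters of this length, and the TEAD motif in 4 of 8 against 14.7%. Abcc9, low in culture, had the TEAD motif as well as Acta2, Tpm1 and Vgll3, which were high there. A match describes letters only, and no match says only that they were not in this window.

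Genotype was then compared within tissue, where 9 of the 10 genes could be tested in 1 WT against 2 mutant arrays. Tagln read 4.08 in the WT array, which lay at the floor, against 29.5 and 31.6 in the mutant arrays, so both mutant arrays were brighter and the fold was at least 5.87. The fitted difference of 2.55 on the log2 scale passed in limma (adjusted p = 0.0193) as the 1 of 9 members past the threshold, against 15.3% of all genes tested, a count near the background. Tagln and Vgll3 entered the tests only through their culture signal, since their tissue means of 4.07 and 4.13 (log2) lay below the filter, a signal of 27.8. The Tagln call was lost when dim genes were not filtered out (adjusted p = 0.165) and without the intensity trend in the prior variance (0.0678), and an offset in place of the floor made the difference 1.22, so the call is not counted as a change.

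The other 8 tested genes did not pass in tissue. Tpm2 gave 0.998 ± 0.37 (adjusted p = 0.093), but its 4 probe sets disagreed, at 0.998, −0.71, −0.73 and −0.07. Acta2 gave 0.29 ± 0.25 (adjusted p = 0.474), Myl9 0.37 ± 0.19 (0.232), Vgll3 0.89 ± 0.67 (0.419) and Tpm1 −0.37 ± 0.22 (0.295). The mural genes gave −0.42 ± 0.20 for Abcc9 (0.185), −0.22 ± 0.20 for Pdgfrb (0.51) and −0.05 ± 0.12 for Rgs5 (0.833). The interval for Rgs5 ran from −0.30 to 0.21, the narrowest of the 9 in tissue. The median over the 9 members was 0.29, against 0.00 over all genes tested.

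In culture, 1 mutant array was set against 1 WT array with no replicate check. None of the 9 members differed by 2-fold (0 of 9), against 3.68% of all genes tested. Abcc9 could not, since both of its culture signals (2.78 in WT and 2.93 in mutants) were set to the floor. The largest difference was in Tpm2, which was 0.64 lower in mutants on the log2 scale (400.1 against 639). Tagln differed by −0.15. Acta2 ranked 26 from the brightest on both culture arrays, so normalization between arrays gave it the same value and a difference of 0. Across both preparations, in a model with preparation and genotype, 0 of 9 members passed in limma, with 1 at an unadjusted p under 0.05, against 1.07% of all genes. Tagln had the largest difference there, 1.39 ± 0.50 (adjusted p = 0.291), followed by Vgll3 at 0.51 (adjusted p = 0.526).

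Whether the genotype difference itself differed between culture and tissue was tested as an interaction, the culture difference minus the tissue difference. Of the 9 genes, 2 passed, both in the negative direction, against 4.48% of all genes tested in either direction. Tagln gave −2.71 (adjusted p = 0.00108), from a difference in tissue taken against the WT array at the floor and a difference of −0.15 in culture. An offset in place of the floor made it −1.37. Tpm2 gave −1.64 ± 0.35 (adjusted p = 0.0295), from 0.998 in tissue and −0.64 in culture. By the other Tpm2 probe sets the interaction difference was 0.25, 0.64 and −0.45, and with the mean of a gene's probe sets it was −0.30 (adjusted p = 0.736). The Tagln call was lost without the filter (adjusted p = 0.103), with the mean of probe sets (0.082) and without the trend (0.233). Acta2, Myl9 and Vgll3, at −0.29, −0.35 and −0.87, and Abcc9, Pdgfrb, Rgs5 and Tpm1, at 0.42, 0.36, 0.60 and 0.31, did not pass (adjusted p of 0.177 or more). The culture difference was set to 0 for Acta2 by its equal rank and for Abcc9 by the floor. Their interaction values are thus the tissue differences with the sign turned and say nothing about culture. The interaction tests used the same WT tissue array as the tissue comparison. Both Tagln calls therefore rest on that 1 value at the floor and are given as values, not as support for a change. That array also entered the culture minus tissue values by which the genes were chosen, and the interaction compares those values between genotypes. The Tpm2 call is therefore given as a value too. Cell cycle genes moved with the same contrasts: 12 of 13 were lower in mutant tissue and 11 of 13 passed the interaction in the positive direction, with summed signals of 27894 in WT tissue, 15845 to 16973 in mutant tissue and 20169 to 21819 in culture. Of 10 astrocyte and radial glia markers, 6 were higher in mutant tissue. Their part in the values of Tagln and Tpm2 was not tested.

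**Figure D3:**
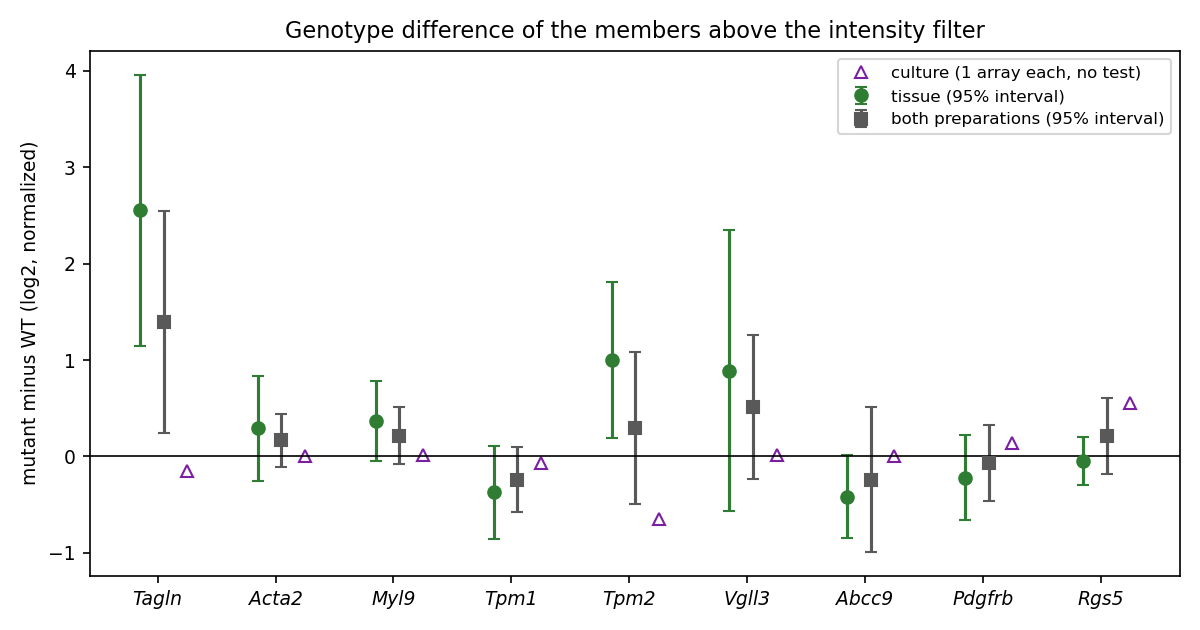
Mutant minus WT (log2) for the 9 tested genes: in tissue (circles) and across both preparations (squares) with 95% intervals of the limma fits, not adjusted for the number of genes, and in culture (triangles) as the difference of 1 array against 1. Tagln in tissue, at 2.55 against a WT array at the floor, is the value past the adjusted threshold, and all culture points lie within 0.64 of 0.

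Other genes of the same pathways were compared between culture and tissue as well. Their lists were drawn up with earlier results of these data known, so their counts describe the lists and are not independent support. Culture minus tissue was tested for these genes in the model with preparation and genotype. In that model 19.6% of all genes tested were higher and 19.2% lower, with a median of 0.0016. Of 39 contractile and actin cytoskeleton genes other than the members, 30 were tested, 21 rose and 2 fell, with a median of 1.12. Cnn2, a calponin of non-muscle cells, rose by 4.88 ± 0.15 (adjusted p = 1.68e-06). Tagln2, a widely expressed relative of Tagln, rose by 2.85 ± 0.20 (4.79e-05). The actin crosslinker Actn1 rose by 2.82 ± 0.12 (4.5e-06) and the scaffold protein Pdlim5 by 2.46 ± 0.22 (0.00015). The remaining tropomyosin genes Tpm4 and Tpm3 rose by 1.03 ± 0.10 (0.000179) and 0.60 ± 0.07 (0.00065). Tagln3, the neuronal relative of Tagln, fell by 1.88, and Csrp2 fell by 0.72.

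Myh11, Lmod1 and Actg2, genes regarded as specific to smooth muscle, were too dim on average to be tested. Since signals of different probe sets cannot be compared, a dim one does not show how much RNA of the gene was present. Myh11, the smooth muscle myosin heavy chain, read 1.90 in WT tissue, 7.28 and 0.732 in the 2 mutant tissue arrays, 4.85 in cultured WT cells and 9.25 in cultured mutant cells. Lmod1, the smooth muscle leiomodin, read 2.25 in WT tissue, 1.86 and 2.06 in the 2 mutant tissue arrays, 5.68 in cultured WT cells and 6.55 in cultured mutant cells. Actg2, the enteric smooth muscle actin, read 14.9 in WT tissue, 18.7 and 7.84 in the 2 mutant tissue arrays, 42.5 in cultured WT cells and 42.8 in cultured mutant cells. Actg2 was therefore 3.24-fold higher in WT culture and 3.58-fold higher in mutant culture, from dim signals, while Myh11 and Lmod1 stayed near the floor on all 5 arrays.

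Of 30 genes listed as SRF, myocardin and TEAD factors with their immediate targets, 25 were tested, 11 rose in culture and 2 fell, with a median of 0.43. This list, called SRF and TEAD for short, also held TGF-beta ligands, their receptors and Smad genes. The largest rises were in secreted or signalling proteins of the list. Thbs1 (thrombospondin) rose by 4.23 ± 0.17 (adjusted p = 4.5e-06), Ccn2 by 3.84 ± 0.15 (4.41e-06), the ligand Tgfb2 by 3.41 ± 0.23 (4.19e-05) and Ccn1 by 3.28 ± 0.17 (1.1e-05). The factors moved in both directions: Srf rose by 0.66 ± 0.16 (adjusted p = 0.0138), Tead1 by 0.60 ± 0.15 (0.0158) and Tead3 by 0.88 ± 0.27 (0.0323), Tead2 fell by 1.27 ± 0.24 (0.00449), and the Vgll3 relative Vgll4 gave 0.28 (0.189). Myocd, the cofactor of SRF in smooth muscle, was not tested and read 1.46 in WT tissue, 1.82 and 5.92 in the 2 mutant tissue arrays, 13.1 in cultured WT cells and 8.83 in cultured mutant cells.

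The list of pericyte and mural markers other than the members also held ligands, relatives and channel partners of the members. Of 27 listed, 20 were tested, 4 rose in culture and 7 fell, with a median of −0.27. Those that rose were the ligands Pdgfa and Pdgfb, the receptor S1pr3 and the channel gene Kcnj11, so the mixed direction depends on what was listed. Vtn (vitronectin) fell by 3.91 ± 0.42 (adjusted p = 0.00032) and Kcnj8, the channel pore that partners Abcc9, fell by 3.68 ± 0.31 (0.000104). The connexin Gja4 fell by 2.53 ± 0.29 (0.000438) and Higd1b by 2.04 ± 0.34 (0.0025). The receptor Pdgfra, which also marks oligodendrocyte precursors and fibroblasts, fell by 0.97 ± 0.25 (0.0169), whereas the Pdgfrb ligand Pdgfb rose by 1.39 ± 0.31 (0.00932). Notch3 gave −0.16 (adjusted p = 0.535) and Rgs4, a relative of Rgs5, 0.93 (0.0552). Cspg4 and Abcc8 were too dim to be tested: Cspg4 read 3.23 to 34.0 in tissue and 23.4 to 40.1 in culture, and Abcc8 9.93 to 21.6 and 3.03 to 15.3, so both overlapped between preparations.

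Markers of other cell types moved between the preparations as well. Endothelial markers fell in 5 of 9 tested and rose in 0, with a median of −0.97 and Cldn5, a tight junction protein of brain endothelium, at −4.89 ± 0.17 (adjusted p = 2.66e-06). The adhesion protein gene Esam fell by 3.40 and Emcn, the endothelial sialomucin, by 1.64. Their summed signal was 2462 to 2923 in tissue and 1071 to 1238 in culture. Pecam1, not tested, read 17.8 in WT tissue, 50.2 and 45.5 in the 2 mutant tissue arrays, 1.86 in cultured WT cells and 2.60 in cultured mutant cells. Red blood cell markers fell in 4 of 4, with sums of 8132 to 11211 in tissue and 19.4 to 22.0 in culture. Fibroblast, mesenchyme and meningeal markers rose in 6 of 14 tested and fell in 3, with a median of 0.46, and their sum was 2834 to 3070 in tissue and 5831 to 6143 in culture. Sparc and Col5a2 carried that difference, since without them the sum was 1523 to 1794 in tissue and 1572 to 1582 in culture. S100a4 rose by 3.31 ± 0.61 (adjusted p = 0.00412). It passed the filter only through culture, where it is high, and its WT tissue signal of 4.62 lay at the floor, so its test is not independent support. The collagen genes Col1a2 and Col5a2 rose by 2.30 ± 0.24 (0.000299) and 2.16 ± 0.12 (1.41e-05). Igf2 fell by 5.14 ± 0.31 (2.53e-05), which is a bound, since its mutant culture signal of 3.33 lay at the floor. Col1a1 was too dim to be tested, at 1.93 to 5.33 in tissue and 24.6 to 50.3 in culture. Of the other lists, astrocyte and radial glia markers rose in 5 of 10 and fell in 3, microglia markers rose in 1 of 7 and fell in 2, and neuron and MGE markers rose in 4 of 13 and fell in 9, with sums of 18802 to 19191 in tissue and 14720.3 to 15500 in culture. The part of these cell types in the values of the 10 genes was not tested.

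**Figure D4:**
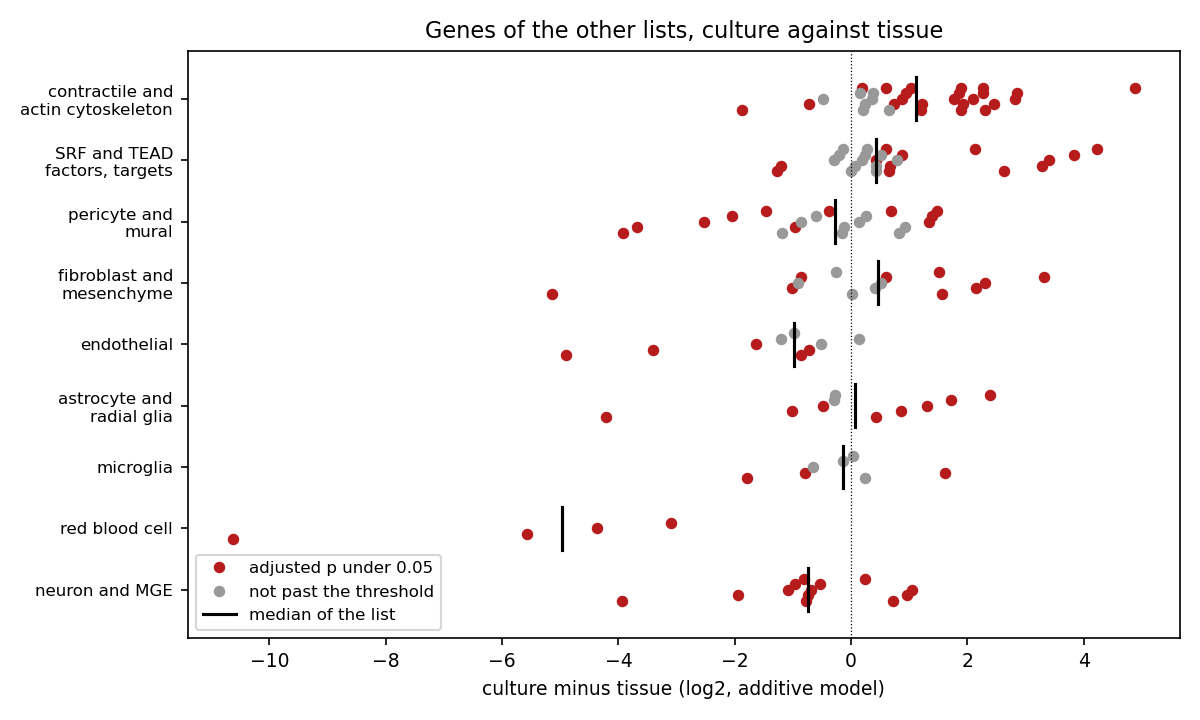
Culture minus tissue (log2, limma difference) for each tested gene of the pathway and marker lists, with 1 point per gene (red past the adjusted threshold, grey not) and a bar at the median of each list; the 10 genes described here are left out. The contractile list has its median at 1.12, the pericyte list at −0.27, the endothelial list at −0.97 and the red blood cell list at −4.97.

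Genotype in tissue was called in each of the 4 lists nearest to these members at shares near the 15.3% of all genes tested. In either direction the shares were 16.7% of the contractile list, 12% of the SRF and TEAD list, 20% of the mural list and 14.3% of the fibroblast list. The called genes are therefore given as single values, and nothing is read from their counts. Of the 30 contractile and actin genes tested, 3 were higher and 2 lower in mutants. Csrp1 fell by 1.02 (adjusted p = 0.00643) and Csrp2 by 0.80 (0.000325), while Tagln3 rose by 0.47 (0.00609) and Fhl1 by 0.44 (0.00508). Of the 25 genes of the SRF and TEAD list, 1 was higher, the TGF-beta ligand gene Tgfb1 (1.45, adjusted p = 0.0434). The 2 lower ones were another TGF-beta ligand gene, Tgfb3 (−2.33, 0.000325), and Tead2 (−0.87, 0.000237). Of the 20 mural markers, Pdgfra rose by 1.62 (2.2e-05), Ndufa4l2 by 1.58 (0.00546) and the endothelin receptor Ednrb by 0.78 (8.38e-05), and the channel gene Kcnj11 fell by 0.66 (0.00176). Of the 14 fibroblast markers, Dlk1 rose by 1.10 (0.000686) and Fbln1 fell by 0.70 (0.02). Of the 9 endothelial markers 0 passed in limma, with 4 at an unadjusted p under 0.05. Of 13 neuron and MGE markers, 5 were higher and 4 lower. The summed signal of the mural markers was 4133 in WT tissue against 4749 and 4947 in mutant tissue, and that of fibroblast markers 2834 against 2930 and 3070. A few genes carried both. Without Ednrb and Pdgfra the mural sum was 2837 in WT tissue against 2406 and 2563, and without Dlk1 the fibroblast sum was 2626 against 2532 and 2551. The genes left out were all higher in mutants. Kcnj11 (735.0 in WT tissue against 481.8 and 481.8) and Fbln1 (281.7 against 160.1 and 202.1), both lower, were kept. The order of the sums thus depends on which genes are left out. The part of these markers in the Tagln difference was not tested.

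Across both preparations, 0 of 30 contractile genes, 0 of 25 SRF and TEAD genes and 0 of 14 fibroblast markers passed in limma, with 6, 3 and 3 at an unadjusted p under 0.05, and of the 20 mural markers only Ednrb passed. In the interaction, 0 of 30 contractile genes passed in limma, with 5 at an unadjusted p under 0.05, against 4.48% of all genes.

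The genes whose profile over the 5 arrays lay nearest to a member were found by the root mean square distance between log2 profiles centred on their own mean, as a description over 5 arrays that share the same preparation difference. Nearest to Tagln was Acta2 itself, at a distance of 1.02, with 0 genes nearer, and Vgll3 lay at 1.42 with 1 gene nearer. Apart from the members, the nearest were Anxa1 (1.46), Akr1c14 (1.48), Cryab (1.51), Crhbp (1.62) and Bmp6 (1.70). Nearest to Rgs5 were Dll3 (0.14), Selenop (0.21), Tmem204 (0.22), Slc25a37 (0.22) and Sinhcaf (0.22). Abcc9 lay at 1.01 from Rgs5, with 1004 genes nearer.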

How the data were processed

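The authors deposited 1 linear intensity per probe set and array (45101 probe sets, 5 arrays). The sources used here do not name the software behind the values. In each array their mean after trimming 2% at each end was about 150. Gene symbols came from the platform annotation (34958 with 1 symbol, 932 with several, 9211 with none). Arrays were quantile normalized, values under the pooled 20th percentile (5.15) were raised to it before taking log2. The brightest probe set stood for a gene, and the 11063 genes with a mean above the pooled median (27.8) were tested in limma 3.58.1 (R 4.3.3, intensity trend), with Benjamini-Hochberg adjusted p-values under 0.05 called. Residual degrees of freedom were 1 in tissue and for the interaction and 2 across both preparations, to which the prior added 10.9, 8.57 and 5.95. A lone array of a group is assumed to vary as the mutant tissue pair does, whose difference had an SD of 0.324 on the log2 scale. The number of arrays limits the precision.

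The members and gene lists were chosen with earlier results of these data known. Named were all members, the 4 largest called differences of a list where the text gives examples, and fixed relatives and partners of members; Tagln3, Csrp2, Tead2 and Tead3 (culture), Lmod1, Myocd and Sparc were named after their values were seen. The model fits were tested on simulated data. Alternatives tried were the deposited scaling, a floor at the 10th percentile, an offset of 16, no filter, the mean of probe sets, all probe sets, no trend and leaving out either mutant tissue array.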

Additional observations from a re-analysis of the deposited data

Results flagged for a closer look

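For 9 of the contractile, SRF and TEAD, mural and fibroblast genes the genotype difference in culture differed from that in tissue by the interaction test in limma (culture difference minus tissue difference, log2), with 1 array in every group but mutant tissue; 4.48% of all genes tested passed, as did 11 of 13 cell cycle genes, 6 of 13 neuron and MGE markers and 2 of 10 astrocyte markers. Among the contractile genes these were Tagln (−2.71, adjusted p = 0.00108), which rests on 1 WT tissue array at the floor in a gene that passed the filter only through culture, and Tpm2 (−1.64, adjusted p = 0.0295). In the SRF and TEAD list they were Tead2 (1.18, adjusted p = 0.00803), at −0.87 in tissue and 0.31 in culture, and the TGF-beta ligand gene Tgfb3 (2.07, adjusted p = 0.0309). Among mural markers they were Ndufa4l2 (−3.78, adjusted p = 0.00803), at 1.58 in tissue and −2.20 in culture, Vtn (2.07, adjusted p = 0.0188) and Pdgfra (−1.15, adjusted p = 0.0321). Among fibroblast markers they were the collagen gene Col6a2 (3.07, adjusted p = 0.0253) and S100a4 (−2.81, adjusted p = 0.0451). Col6a2 stood at 0.23 in tissue and 3.30 in culture, which rests on 1 WT culture array at 6.86, against 46.3 to 67.6 elsewhere. Like Tagln, S100a4 rests on 1 WT tissue array at the floor (4.62) and passed the filter only through culture.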

How the results depend on the processing

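No direction of a called value turned. With no filter on dim genes, 0 members passed in tissue (2 at an unadjusted p under 0.05) and 0 in the interaction (3 unadjusted), and 389 genes were called in tissue and 0 across both preparations (1713 unadjusted). Culture calls under that setting were 1 lower in the contractile list, 6 higher and 1 lower in the SRF and TEAD list, 1 higher and 3 lower among mural markers and 1 lower among fibroblast markers. With the mean of a gene's probe sets, 489 genes were called in tissue, 35 across both and 4 in the interaction, 0 of them members (1 unadjusted), and 2 fibroblast markers were higher and 0 lower in culture (1 unadjusted lower). With every probe set tested, 1 member passed the interaction, Tagln, and Tpm2 had an adjusted p of 0.0573. With no intensity trend, 0 members passed in tissue (2 unadjusted) and 0 in the interaction (2 unadjusted), and 2, 4 and 0 genes were called in tissue, across both and in the interaction (1681 unadjusted in the last). These zeros are limma's. Main counts were 1691, 118 and 496 genes. Without mutant tissue replicate 1 or 2, 35 and 36 genes were called across both, and 8 and 7 SRF and TEAD genes were higher in culture; tissue and the interaction then had no residual degree of freedom and no test. Deposited scaling, the lower floor and the offset kept every count within 1.5 times, but the offset moved the Tagln difference from 2.55 to 1.22 in tissue and from −2.71 to −1.37 in the interaction. Culture minus tissue kept its sign for all 10 genes: Acta2 in WT ranged from 3.48 with the mean of probe sets to 7.66, Tagln from 8.47 to 10.82 and Abcc9 from −5.94 to −3.33. No paired analysis was possible because the groups share only 1 replicate number.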
